A study of Homo sapiens with 6 samples.

Results

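Ubiquitin-specific proteases other than USP32 were compared between MDA-MB-231 cells, an established human line of triple negative breast cancer, transfected for 48 h with a control siRNA (siControl, 3 libraries) or an siRNA against USP32 (siUSP32, 3 libraries). The members were all listed genes whose symbol is USP followed by a digit, without USP32 itself. This rule took 66 of the 17646 listed genes. USP6NL, taken by its spelling, encodes a GTPase-activating protein for Rab proteins and no protease, so 65 protease genes are described and USP6NL is given apart. Of these, 43 had a mean of at least 1 FPKM (sequenced fragments counted per kilobase of a gene's transcript, relative to the library's mapped fragments) over the 6 libraries and entered the test, and 22 did not. Both groups are the same line, and no untransfected or rescued cells were used here. Whether the 3 libraries of a group are separate cultures is not stated, so a p-value here speaks only of the spread among libraries, which may be technical. FPKM holds no read number, so the depth behind each value is unknown and no counting interval is given. Genes listed to describe the line went both ways in mean FPKM from siControl to siUSP32. VIM (1085 and 1658), KRT7 (1605 and 2064) and KRT18 (2370 and 2609) were higher, and KRT19 (1239 and 933), CD44 (425 and 134.7), EPCAM (10.5 and 4.24) and ERBB2 (12.03 and 3.603) were lower. ESR1 (0.5 and 0.207) lay under 1 FPKM in both groups.

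Ubiquitin-specific proteases remove ubiquitin from proteins with a catalytic cysteine that sits in a conserved stretch of the peptidase domain, the cysteine box. They form the largest class of human deubiquitinases, and single members differ in the domains around the peptidase, in their location and in the proteins they act on. USP32 combines EF-hand motifs, a DUSP domain (a fold found only in some members), ubiquitin-like folds and a lipid-modified C-terminus that holds it on membranes, and it is known to act on the late endosomal GTPase RAB7. USP19 and USP30 are held in membranes by a hydrophobic segment of the protein itself, USP19 in the endoplasmic reticulum and USP30 in the outer mitochondrial membrane. Most other members are soluble in the cytosol or the nucleus. Several members are known to act on YAP, TAZ or Hippo pathway proteins, which are studied in this cancer type.

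The coding sequence around the catalytic cysteine is shown for USP32 and for relatives named below, since the peptidase is the part they share. Each stretch runs 5′ to 3′ on the coding strand over 26 codons, with the cysteine codon in capitals, and comes from GENCODE 29 transcripts on GRCh38.
USP32: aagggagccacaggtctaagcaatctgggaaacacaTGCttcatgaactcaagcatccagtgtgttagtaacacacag
USP6: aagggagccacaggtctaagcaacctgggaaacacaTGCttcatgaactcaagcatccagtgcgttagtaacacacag
USP15: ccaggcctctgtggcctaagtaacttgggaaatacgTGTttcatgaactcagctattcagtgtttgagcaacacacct
USP4: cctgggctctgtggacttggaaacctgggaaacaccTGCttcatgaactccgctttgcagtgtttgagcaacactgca
USP11: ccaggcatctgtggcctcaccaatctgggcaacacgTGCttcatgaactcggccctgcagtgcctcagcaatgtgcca
USP33: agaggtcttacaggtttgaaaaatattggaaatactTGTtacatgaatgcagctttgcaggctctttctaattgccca
USP48: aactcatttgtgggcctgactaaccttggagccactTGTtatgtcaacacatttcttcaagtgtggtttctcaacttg
Of these 78 bases USP6 shared 76 with USP32, and its substitutions were T24C and T63C, counted from the first base shown. USP15 shared 53, USP4 50, USP11 49, USP33 44 and USP48 34. The USP32 stretch lies in exon 20 of 34 (chr17:60211426-60211503, minus strand) and that of USP6 in exon 24 of 38 (chr17:5142014-5142091, plus strand), both in coding exons. The stretch of USP48 lies in exon 3 of 27 (chr1:21756625-21756702, minus strand). The others are spliced: USP15 from exons 7 and 8 of 21 (chr12:62355416-62381507, plus strand), USP4 from exons 8 and 9 of 22 (chr3:49305871-49310679, minus strand), USP11 from exons 7 and 8 of 21 (chrX:47240817-47241294, plus strand) and USP33 from exons 6 to 8 of 24 (chr1:77730728-77736059, minus strand).

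Over whole proteins, translated from the same transcripts and aligned locally, USP6 was nearest to USP32, with 853 identical residues in 908 aligned columns (93.9%). USP11 came next by alignment score (262 of 825 columns, 31.8%), then USP15 (257 of 853, 30.1%), USP4 (267 of 899, 29.7%) and USP19 (208 of 675, 30.8%). USP33 ranked 13 by this score, USP20 ranked 15, USP30 ranked 43 and USP48 ranked 57 of 66. So among the members that share a DUSP domain with USP32, USP4, USP11 and USP15 were the near ones, and the membrane-anchored USP19 ranked just after them.

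USP32 checks the siRNA. With siControl it was at 7.5, 7.48 and 8.32 FPKM, and with siUSP32 at 2.0, 1.88 and 2.01 FPKM, with no overlap. Its log2 difference was -1.56 ± 0.07 (SE, limma adjusted p = 8.57e-08), on the scale of log2(FPKM + 1), siUSP32 minus siControl, which is used for every difference here and understates changes of low genes. In siControl 23 of the 43 tested members had a higher mean FPKM than USP32, and in siUSP32 36 did. Because the libraries are bulk RNA, fewer cells that make a transcript and less of it per cell cannot be told apart. For a single gene, an exact permutation test of 3 against 3 libraries cannot give a p below 0.1.

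Read sharing can blur close relatives, and the handling of reads that match several genes is not given in the sources used here. Of the 100-base windows of the USP6 transcript, 4.76% occur exactly in another gene's transcript, 1.76% in that of USP32. Their coding sequences match at 96.1% of 2724 aligned columns, so values of USP6 are uncertain where reads with mismatches were accepted. Of the other tested members 37 shared no such window, and USP10, USP12, USP18, USP31 and USP8 shared some, USP31 the most (25.2%). USP32 itself shares 16.5% of its windows with other genes. Exons of USP2, USP3, USP22, USP31, USP34, USP37 and USP54 overlap those of another gene over more than 10% of their bases (14.9% to 37.9%). The use of strand in counting is not given, so reads of genes that overlap on opposite strands cannot be told apart there. For USP31 25.9% of exon bases overlap another gene and 4.36% overlap one on the opposite strand, so strand would not separate most of these reads.

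USP6, the hominoid gene formed in part from USP32, stood near the low end. It was at 1.68, 1.86 and 1.6 FPKM in siControl and at 1.1, 0.9 and 0.94 FPKM in siUSP32. Each siUSP32 library lay below each siControl library. The log2 difference was -0.45 ± 0.08 (limma adjusted p = 4.97e-04), but it was 0.05 after correction for transcript length (adjusted p = 0.570) and -0.10 after quantile normalization (0.260), where the call was lost. USP6 kept its call with TPM (each library rescaled to the same sum), at -0.73 (limma adjusted p = 8.09e-05). USP6 stood at 0.221 times the USP32 mean in siControl and at 0.499 times the lowered USP32 mean in siUSP32.

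USP11, a nuclear and cytosolic protease with roles in DNA repair, was the most abundant member in both groups. It was at 79.61, 76.7 and 77.39 FPKM in siControl and at 91.2, 94.4 and 96.56 FPKM in siUSP32, with no overlap. It rose 1.21-fold, with a log2 difference of 0.27 ± 0.05 (limma adjusted p = 6.26e-04) that was 0.38 with the length correction, 0.05 and not called after quantile normalization, and -0.10 and not called with TPM (each library rescaled to the same sum). USP4, known for acting in TGF-beta receptor signalling and splicing, was at 11.79, 11.62 and 11 FPKM and then at 14.62, 13.05 and 15.45 FPKM, again with no overlap. USP4 rose 1.25-fold (log2 difference 0.30 ± 0.07, limma adjusted p = 0.00425), with 0.37 after the length correction, 0.50 after quantile normalization and -0.05, not called, with TPM.

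USP15, the member closest to USP4 (59.1% identity over 950 columns), went the other way before correction. It was at 5.67, 5.28 and 5.83 FPKM in siControl and at 4.52, 3.76 and 5.13 FPKM in siUSP32, where the highest siUSP32 value lay just under the lowest siControl value. It fell, with a log2 difference of -0.28 ± 0.10 (limma adjusted p = 0.0267), which turned to 0.33 (0.00161) with the length correction and to 0.09, not called, after quantile normalization. By TPM USP15 was called lower (-0.61, limma adjusted p = 0.00157). The transcript used for USP15 has 14950 bases, and those of USP4 and USP11 have 3126 and 3338. In limma the USP15 call was also lost without siControl library 1 (adjusted p = 0.0730), without siControl library 3 (0.0854), without siUSP32 library 1 (0.0567) and with no filter on low values (0.0538).

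The other DUSP-domain members divided too. USP33, which acts at the endoplasmic reticulum and on receptors that are recycled, was at 26.08, 26.4 and 26.37 FPKM in siControl and at 17.26, 14.85 and 18.67 FPKM in siUSP32, far below with no overlap. USP33 fell 1.55-fold (log2 difference -0.61 ± 0.08, limma adjusted p = 9.15e-05) and was called lower in each other scaling, at -0.98 by TPM, -0.53 by quantiles and -0.36 when corrected for length. USP20, its near copy (59.8% identity over 928 columns), was at 6.63, 6.46 and 6.43 FPKM and at 6.93, 6.38 and 6.94 FPKM, and the groups overlapped. Its log2 difference of 0.05 ± 0.06 did not pass (limma adjusted p = 0.533), and it passed in each other scaling, at -0.29 by TPM but 0.36 by quantiles and 0.31 when corrected for length. USP48, a nuclear member, was at 23.11, 22.79 and 24.15 FPKM and at 18.91, 16.42 and 19.51 FPKM, with no overlap. USP48 fell 1.28-fold (log2 difference -0.34 ± 0.07, limma adjusted p = 0.00192), but correcting for length ended that call (-0.06). It was also called lower by TPM (-0.70) and by quantiles (-0.26). Of these 6 DUSP-domain members 2 rose, 3 fell and 1 did not pass, with a median of -0.12, shares near those of all genes tested (33.3% higher, 41.3% lower). With TPM 0 rose and 4 fell (median -0.45, all genes 14.3% higher, 62.1% lower). After quantile normalization 2 were higher and 2 lower (0.07, all genes 43.8% and 30%). When corrected for length 4 were higher and 1 lower (0.32, all genes 35.1% each).

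**Figure D1:**
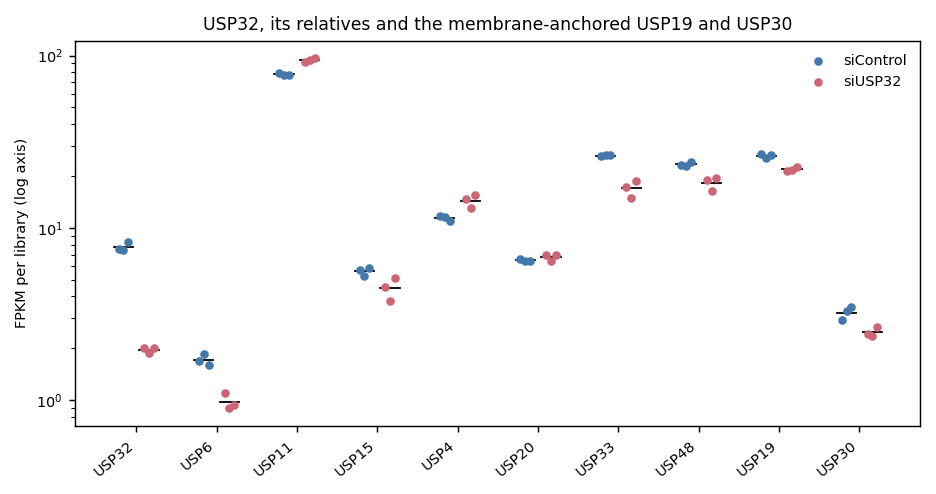
FPKM on a log axis in each of the 3 siControl and 3 siUSP32 libraries (points) with the group mean (line) for USP32, USP6, the DUSP-domain members, USP19 and USP30. USP32 drops from 7.77 to 1.96 FPKM on average, USP11 stays at the top at 77.9 and 94.1 FPKM, and the groups of USP20 overlap.

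Ratios between near copies within a library are not changed by 1 scaling factor per library, such as TPM uses, but they are changed by quantile normalization and by the length correction. Changes as deposited are those of the plain log2 ratio of FPKM. Changes with the length correction and after quantile normalization come from values with 1 added before the log. They are therefore not strictly comparable with the plain ones, least of all for low members. The FPKM ratio of USP20 to USP33 was 0.254, 0.245 and 0.244 in siControl and 0.402, 0.430 and 0.372 in siUSP32, so every siUSP32 library was higher. The change of the log2 ratio was 0.69, and their transcripts have 4458 and 4327 bases, so that it was 0.67 with the length correction (0.89 after quantile normalization). The ratio of USP4 to USP15 was 2.08, 2.20 and 1.89 in siControl and 3.23, 3.47 and 3.01 in siUSP32. Its change of 0.66 was 0.04 with the length correction and 0.41 after quantile normalization. USP5 to USP13 (61.1% identity) went from a mean ratio of 3.41 ± 0.03 to 4.98 ± 0.60 (SD, n = 3), a change of 0.54 that was 0.05 with the length correction and 0.23 after quantile normalization. The ratios of USP12 to USP46 (88.5% identity) were 12.7 ± 1.14 and 11.5 ± 0.68 and overlapped, and their change of -0.14 was -0.52 with the length correction and -0.56 after quantile normalization. Overlap was also seen in the ratios of USP25 to USP28 (1.15 ± 0.06 and 1.32 ± 0.16) and of USP4 to USP11 (0.147 ± 0.005 and 0.153 ± 0.013), the latter with a change of 0.05 that was 0.44 after quantile normalization. USP22 to USP27X (82.4% identity) had ratios of 15.2 ± 1.58 and 12.9 ± 1.13, with no overlap by a small margin, and a change of -0.23 that was 0.05 when corrected for length and -0.80 after quantile normalization. These 8 pairs were chosen after the members' values had been seen. Over them the exact permutation p was 0.1 for 4 pairs, the smallest that this design allows, and 0.2 after Benjamini-Hochberg adjustment, so 0 pairs passed.

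**Figure D2:**
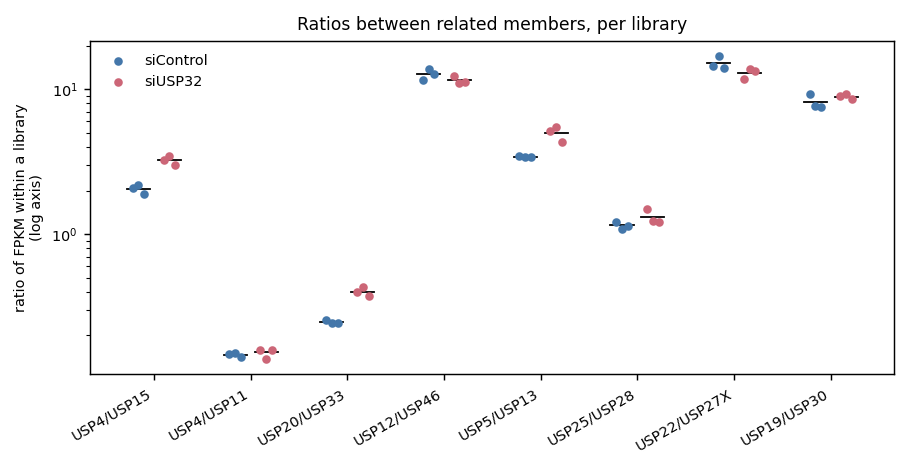
Ratio of the FPKM of related members within each library, on a log axis, for 3 siControl and 3 siUSP32 libraries (points) with the mean (line). The ratios of USP20 to USP33, USP4 to USP15 and USP5 to USP13 are higher in all siUSP32 libraries, and that of USP19 to USP30 overlaps between the groups.

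The most hydrophobic windows of USP19 and USP30 are shown in the coding sequence. The 19 codons with the highest mean hydropathy are in capitals, with flanking codons in lower case, 5′ to 3′ on the coding strand.
USP19: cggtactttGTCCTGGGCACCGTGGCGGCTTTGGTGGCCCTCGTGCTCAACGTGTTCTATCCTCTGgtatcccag
USP30: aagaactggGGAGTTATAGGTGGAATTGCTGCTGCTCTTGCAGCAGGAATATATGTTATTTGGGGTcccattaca
In USP19 the window covers residues 1293 to 1311 of 1318, at the C-terminus, in the last of 26 exons (chr3:49108973-49109047 with its flanks, minus strand, GRCh38), with a mean Kyte-Doolittle hydropathy of 2.14. In USP30 it covers residues 36 to 54 of 517, near the N-terminus, in exon 2 of 13 (chr12:109056695-109056769, plus strand), with a mean of 1.84. A window at or above the threshold of 1.6 was also present in 8 other tested members, USP9X, USP24, USP25, USP31, USP34, USP35, USP38 and USP40. These were not listed as membrane-anchored here, and whether any of their forms is anchored was not checked. The window alone was therefore not taken to mark an anchor. USP19 is also made in forms that end without the anchor, and FPKM per gene does not separate forms.

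USP19, which acts in the quality control of endoplasmic reticulum proteins, was at 26.81, 25.33 and 26.31 FPKM in siControl and at 21.5, 21.75 and 22.64 FPKM in siUSP32, with no overlap. It fell 1.19-fold (log2 difference -0.24 ± 0.05, limma adjusted p = 0.00237). By TPM USP19 was at -0.60 and by quantiles at -0.18, both called. The length correction, a robust loess curve, gave 0.03 (limma adjusted p = 0.587), and the same correction by a least-squares curve gave 0.18 and a call in the opposite direction (0.00994), so the direction of USP19 depends on the scaling. USP30, which opposes the removal of damaged mitochondria by Parkin, was at 2.9, 3.28 and 3.49 FPKM and at 2.41, 2.36 and 2.66 FPKM, with no overlap. It fell 1.30-fold (log2 difference -0.28 ± 0.08, limma adjusted p = 0.00991), with a call lost by the length correction (-0.11, adjusted p = 0.196) and a value of 0.12, not called, after quantile normalization. By TPM USP30 was called lower (-0.585).

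As deposited, both lay in the middle of the other tested members, called soluble here without a check for anchored forms. Those 41 had a median difference of -0.30 and quartiles of -0.43 and -0.08. Of them 5 were higher, 28 lower and 8 not past the test (all genes 33.3% higher, 41.3% lower). Of the 41, 23 were lower than USP30 and 26 were lower than USP19. With the length correction 18 soluble members were lower than USP19 and 13 lower than USP30. After quantile normalization 13 were lower than USP19 and 29 lower than USP30, so their places depend on the scaling. Among the 3880 tested genes of the whole table whose protein has a hydrophobic window, the median difference was -0.43 (length-corrected -0.34), and among the 8077 with none it was 0.06 (0.09). USP19 was above 60.0% and USP30 above 57.8% of the genes with a window. The FPKM ratio of USP19 to USP30 within a library was 9.24, 7.72 and 7.54 in siControl and 8.92, 9.22 and 8.51 in siUSP32. These ratios overlapped (change of the log2 ratio 0.13, exact permutation p = 0.4). With 1 added before the log, the change was 0.14 with the length correction, -0.02 with TPM and -0.30 after quantile normalization. TPM cannot change the plain ratio, so its value differs from 0.13 only through the added 1. After quantile normalization the direction turned. With 3 libraries a group, a difference between USP19 and USP30 in response could not be shown.

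As a family, the 43 tested members were lower more often than higher in the FPKM as deposited, with 30 lower (69.8%), 5 higher (11.6%) and 8 not past the test. The counts were nearer to each other after quantile normalization and turned with the length correction, as given below. Over all 12003 genes 41.3% were lower, 33.3% were higher and 74.6% were called in either direction. The median difference of the members was -0.29, against -0.06 over all genes. With USP6NL included 31 of 44 were lower. Groups did not overlap for 38 members (88.4%, against 77.8% of all genes). Of the tested members 32 lay below (74.4%, all genes 43.2%) and 6 above (14%, all genes 34.6%). With TPM, which moved the median of all genes to -0.39, 35 members were lower and 1 higher (median -0.61, background 62.1% lower, 14.3% higher and 76.4% in either direction). After quantile normalization, which moved it to 0.10, 15 were lower and 12 higher (median 0.00, background 30% lower, 43.8% higher and 73.8% in either direction). Minus the median of all genes, the members' median was -0.23 as deposited, -0.21 with TPM and -0.10 after quantile normalization.

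Length went with these differences. The members' transcripts have a median of 4669 bases, against 3051 over all genes with a length. Across the 43 members the difference correlated with log2 length at r = -0.58 (Spearman's rho -0.53), a description over genes that share libraries, and over 11957 genes at r = -0.45 (rho -0.52). The 15 members with the shortest transcripts, 2129 to 4216 bases, included the 5 that rose and 7 that fell (median -0.08). Of the 14 in the middle, with 4327 to 6072 bases, 0 rose while 11 fell (median -0.35). Of the 14 longest, with 6247 to 19026 bases, 0 rose while 12 fell (median -0.38). Shares of all genes in the same ranges of length were not computed, so these counts have no background beside them. With the length correction 8 members were lower and 14 higher (18.6% and 32.6%, background 35.1% each and 70.2% in either direction), with a median of 0.04 against 0.01 over all genes. USP8, USP13, USP15 and USP46 were called lower as deposited and higher with this correction. With the least-squares curve in place of the robust one, 5 were lower and 20 higher (median 0.17 against 0.11 over all genes). Over all 11957 genes with a length, the least-squares curve gave 3407 lower and 5345 higher. The robust curve was chosen after both had been seen, because it brought the median of all genes nearer to 0. In the 4 scalings (deposited FPKM, TPM, quantile and robust length correction) 7 members were called lower each time, namely USP1, USP9X, USP12, USP22, USP33, USP34 and USP47. Of these USP1 (-0.03), USP9X (-0.13) and USP12 (-0.18) lost the call with the least-squares curve. The share of all genes called lower in all 4 was not computed, so this count has no background beside it. Each scaling alone called 30% to 62.1% of all genes lower.

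**Figure D3:**
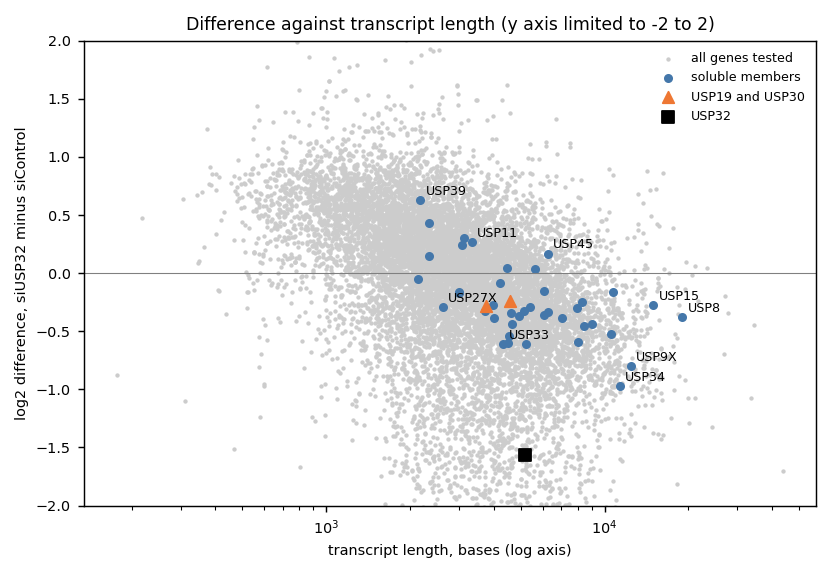
Log2 difference of siUSP32 minus siControl against transcript length in bases (log axis) for all genes tested (grey), soluble members (blue), USP19 and USP30 (triangles) and USP32 (square). Long members such as USP34 and USP9X lie low, USP39 with 2177 bases is the highest member as deposited, and USP19 and USP30 lie among the soluble members.

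Apart from the relatives above, the 6 lowest differences were those of USP34, USP9X, USP22, USP12, USP37 and USP47. USP34, which acts on axin in WNT signalling, was at 11.18, 11.3 and 11.16 FPKM in siControl and at 5.31, 4.5 and 5.96 FPKM in siUSP32. It fell 2.13-fold (log2 difference -0.97 ± 0.09, limma adjusted p = 9.17e-06, length-corrected -0.40). USP9X, encoded on the X chromosome and known to act on Hippo pathway proteins, was at 14.18, 13.77 and 14.04 FPKM and at 7.65, 6.64 and 8.66 FPKM. USP9X fell 1.83-fold (log2 difference -0.80 ± 0.09, length-corrected -0.22). For both genes every siUSP32 library lay well under every siControl library.

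USP22, the deubiquitinase of the SAGA coactivator complex, was the member with the highest FPKM after USP11 in siControl, at 53.52, 53.91 and 52.72 FPKM, and was at 34.67, 33.4 and 35.91 FPKM in siUSP32. It fell 1.54-fold (log2 difference -0.61 ± 0.05, limma adjusted p = 4.42e-06, length-corrected -0.27). USP12, which works with the WD40 protein UAF1, was at 23.12, 24.79 and 25.38 FPKM and at 15.81, 13.55 and 18.3 FPKM (log2 difference -0.60 ± 0.10, length-corrected -0.33). USP47 was at 17.94, 18.51 and 19.25 FPKM and at 12.6, 11.58 and 13.25 FPKM (-0.54 ± 0.06, length-corrected -0.27). USP37, which stabilises cyclin A at the entry into S phase, was at 2.36, 2.45 and 2.55 FPKM and at 1.4, 1.22 and 1.25 FPKM, a 1.9-fold fall (-0.59 ± 0.07) that lost its call with the length correction (-0.10). In these 4 genes, too, the groups did not overlap, but the genes were chosen by their low differences. Of all genes tested, 43.2% had siUSP32 below siControl with no overlap.

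In the FPKM as deposited and with TPM the highest difference was that of USP39, a component of the splicing tri-snRNP that lacks peptidase activity. It was at 37.98, 38.78 and 37.74 FPKM in siControl and at 59.86, 57.5 and 61.51 FPKM in siUSP32. USP39 rose 1.56-fold (log2 difference 0.63 ± 0.05, limma adjusted p = 3.26e-06), and it was the 1 member called higher in all 4 scalings, at 0.27 by TPM, 0.53 by quantiles (below USP21, 0.61) and 0.50 when corrected for length (below USP45, 0.58). The share of all genes called higher in all 4 scalings was not computed. USP21, which removes ubiquitin from histone H2A, was at 11.57, 11.94 and 12.55 FPKM and at 17.04, 15.82 and 16.79 FPKM, a 1.38-fold rise (0.43 ± 0.06) that was 0.09 and not called with TPM. USP5, which takes apart free ubiquitin chains, was at 23.46, 23.25 and 23.72 FPKM and at 27.03, 29.09 and 27.85 FPKM, a 1.19-fold rise (0.24 ± 0.05) that was -0.11 and not called with TPM.

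The next in order beside USP20, given above, were USP45, USP3 and USP40, which did not pass the test. USP45, which acts in the repair of DNA crosslinks, was at 5.62, 5.95 and 5.68 FPKM in siControl and at 6.14, 6.35 and 7.29 FPKM in siUSP32, with no overlap (log2 difference 0.17, limma adjusted p = 0.0693). It had the highest length-corrected difference of the family (0.58), 0.50 after quantile normalization and -0.16 with TPM. USP3, a histone H2A protease, was at 5.15, 5.48 and 4.71 FPKM and at 5.98, 5.16 and 6.25 FPKM, and its groups overlapped (0.15, limma adjusted p = 0.132), with 0.49 and a call after quantile normalization and -0.17, not called, with TPM. USP40 was at 5.97, 6.43 and 6.99 FPKM and at 7.27, 6.38 and 6.26 FPKM, with overlap (0.03, limma adjusted p = 0.722), and was 0.40 with the length correction and -0.30 with TPM. Without siUSP32 library 2, limma called USP3 (adjusted p = 0.0168) and USP45 (0.0416) higher.

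**Figure D4:**
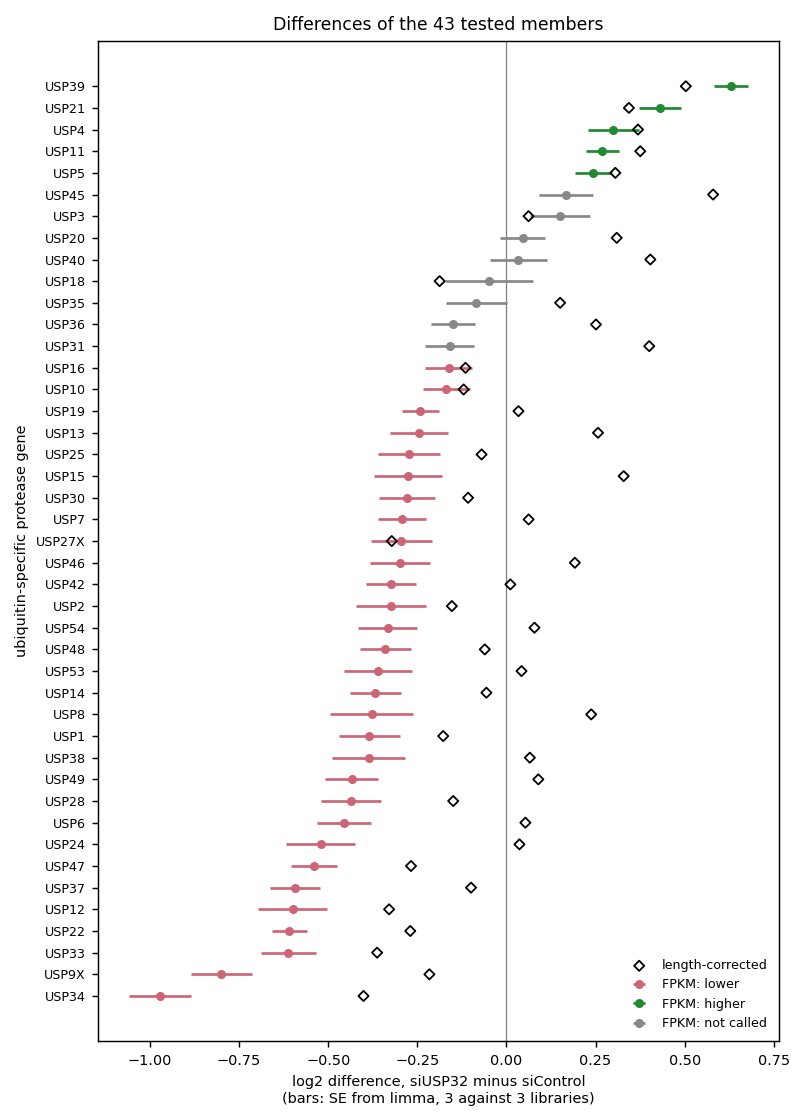
Log2 difference of siUSP32 minus siControl for the 43 tested members, ordered by size, with SE bars from limma over 3 against 3 libraries and colours for the call, and the length-corrected difference (open diamonds). Most members lie left of 0 as deposited, and the diamonds lie around 0.

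Grouped by what they do, the 5 members reported to act on YAP, TAZ or Hippo proteins (USP1, USP7, USP9X, USP10 and USP47) all fell, with differences of -0.80 to -0.17 and a median of -0.38 (41.3% of all genes fell). The 5 were also lower with TPM (median -0.75, all genes 62.1% lower) and after quantile normalization (-0.37, 30%), while 3 of 5 were lower with the length correction (-0.18, 35.1%). With the least-squares curve USP47 alone of these was called lower (-0.12) and USP7 was called higher (0.19). USP7, best known for stabilising the p53 ligase MDM2, went from 24.1 ± 0.06 to 19.5 ± 1.73 FPKM (SD, n = 3) and had 0.06, not called, with the length correction. USP10, which binds the stress granule protein G3BP1, went from 37.2 ± 0.79 to 33.0 ± 2.77 FPKM and lay close under the threshold (-0.17, limma adjusted p = 0.0429). USP1, which acts with UAF1 on FANCD2 and PCNA in DNA repair, went from 34.6 ± 1.05 to 26.4 ± 3.26 FPKM (-0.38, length-corrected -0.18).

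The 3 UAF1 partners USP1, USP12 and USP46 fell, with a median of -0.38 (41.3% of all genes fell). With TPM the 3 were also lower (all genes 62.1%), and after quantile normalization 2 were lower (30%). With the length correction 2 were lower and 1 higher (35.1% each). USP46 was 0.19 and higher with the length correction and 0.06, not called, after quantile normalization. Of 10 genes of partner proteins tested, 2 rose, 4 fell and 4 did not pass (all genes 33.3% higher, 41.3% lower). With TPM 0 rose and 7 fell (all genes 14.3% higher, 62.1% lower). After quantile normalization 4 were higher and 3 lower (43.8% and 30%), and when corrected for length 4 were higher and 2 lower (35.1% each). Those of these proteases did not pass, with WDR48, which encodes UAF1, at 19.3 ± 0.48 and 18.5 ± 1.43 FPKM and WDR20 at 20.6 ± 0.92 and 20.3 ± 2.01 FPKM. Of 6 tested histone deubiquitinases 4 fell (USP16, USP22, USP27X and USP49), USP21 rose and USP3 did not pass (all genes 33.3% higher, 41.3% lower). With TPM 4 fell and 0 rose (all genes 62.1% lower, 14.3% higher). After quantile normalization 2 were lower and 2 higher (30% and 43.8%), and with the length correction 2 were lower and 1 higher (35.1% each). USP27X, encoded in a single exon on the X chromosome and a near copy of USP22, went from 3.53 ± 0.32 to 2.70 ± 0.28 FPKM (log2 difference -0.29, length-corrected -0.32, and 0.11, not called, after quantile normalization). USP44 and USP51 of the same group were under the filter. Of the subunits that activate USP22 in SAGA, ATXN7L3 fell from 36.5 ± 0.10 to 24.7 ± 0.56 FPKM (-0.55) and ATXN7 from 3.95 ± 0.28 to 2.38 ± 0.31 FPKM (-0.55, length-corrected -0.09), while ENY2 rose from 57.9 ± 2.18 to 75.3 ± 3.26 FPKM (0.37, and 0.01 with TPM).

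Among members of free chain and proteasome processing, USP14, which trims ubiquitin at the proteasome, went from 29.4 ± 0.14 to 22.6 ± 2.22 FPKM (log2 difference -0.37, length-corrected -0.06), and USP13 from 6.89 ± 0.10 to 5.67 ± 0.69 FPKM (-0.25, length-corrected 0.26). Beside USP39, the members long annotated as lacking peptidase activity were USP53, from 5.86 ± 0.14 to 4.38 ± 0.67 FPKM (-0.36, length-corrected 0.04), and USP54, from 2.13 ± 0.09 to 1.49 ± 0.21 FPKM (-0.33, length-corrected 0.08). USP8, which acts on endosomes in receptor sorting, went from 11.6 ± 0.57 to 8.78 ± 1.68 FPKM (-0.38) and was 0.24 and called higher with the length correction. Its partner STAM2 fell from 7.08 ± 0.24 to 4.25 ± 0.88 FPKM (-0.64), and STAM, at 9.46 and 10.02 FPKM, did not pass (limma adjusted p = 0.515).

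Of the remaining members, USP24 (log2 difference -0.52), USP28 (-0.44), USP49 (-0.43), USP38 (-0.39), USP2 (-0.32), USP42 (-0.32), USP46 (-0.30), USP25 (-0.27) and USP16 (-0.16) fell as deposited. With the length correction each of these lay between -0.15 and 0.09 and was not called, except USP46 as given above. After quantile normalization USP24 (-0.24) and USP16 (-0.16) kept a call. USP31 (-0.16), USP36 (-0.15), USP35 (-0.08) and USP18 (-0.05) did not pass as deposited. Other scalings called USP31, USP36 and USP35 in opposite directions, while USP18 was called after quantile normalization alone. With TPM USP31 (-0.46), USP36 (-0.48) and USP35 (-0.37) were lower. After quantile normalization USP31 (0.24), USP36 (0.17), USP35 (0.31) and USP18 (0.32) were higher, and with the length correction USP31 (0.40) and USP36 (0.25) were. USP18, which removes the ubiquitin-like ISG15 and is induced by interferon, was at 1.51, 1.27 and 2.09 FPKM in siControl and at 1.81, 1.46 and 1.3 FPKM in siUSP32, with overlap. It shares 15.4% of its windows with USP41 and is uncertain for that reason. USP6NL, the gene taken by its spelling, went from 4.04 ± 0.10 to 2.39 ± 0.27 FPKM (-0.58, limma adjusted p = 1.27e-04, length-corrected -0.31).

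Several of these calls sat near the threshold. USP16 (limma adjusted p = 0.0494) lost its call with a pseudocount of 0.1 (0.0504) and in 5 of the 6 fits without 1 library (0.0822 to 0.143), all but that without siUSP32 library 3. USP10 lost it without any of the 3 siControl libraries and without siUSP32 library 1 (0.0708 to 0.130). USP13 lost it in the same 4 fits (0.0537 to 0.0820). USP25 lost it without siControl library 1 (0.0581) or 3 (0.0513), USP2 without siControl library 1 (0.0585) or siUSP32 library 1 (0.0562), and USP8 without siControl library 2 (0.05002). USP36 was called without siUSP32 library 2 (0.0416) and USP31 without siUSP32 library 3 (0.0392).

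The 22 members under the filter were 17 USP17L genes and USP26, USP41, USP43, USP44 and USP51. The USP17L genes, a family of near-identical copies, had values of 0 to 0.39 FPKM, and 55 of their 102 values were 0. For several of them 100% of the 100-base windows occur in other genes, so their values cannot be assigned gene by gene. USP26 lay between 0.10 and 0.17 FPKM, USP44 between 0 and 0.07, USP41 between 0 and 0.09 and USP51 between 0.30 and 0.54. USP43 was at 0.97, 0.94 and 0.89 FPKM in siControl and at 0.42, 0.68 and 0.5 FPKM in siUSP32, with no overlap, and without a filter it was the member of the 22 that passed (log2 difference -0.34, limma adjusted p = 0.00411).

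The summed FPKM of the 65 protease members came to 647.3, 646.9 and 655.1 with siControl, against 585.8, 547.3 and 619.4 with siUSP32. That sum was lower in each siUSP32 library, while the FPKM of all listed genes summed to 689300 and 892600 on average. Shares of the deposited FPKM within the family, members and USP32 together, are not changed by 1 scaling factor per library. They are not corrected for transcript length. USP32 made up 1.18% ± 0.06 of the summed family FPKM in siControl and 0.335% ± 0.010 in siUSP32 (SD, n = 3). USP11 went from 11.9% ± 0.27 to 16.1% ± 0.96, USP39 from 5.81% ± 0.12 to 10.2% ± 0.29 and USP4 from 1.75% ± 0.08 to 2.45% ± 0.06, all without overlap (exact permutation p = 0.1, the smallest this design gives). USP22 went from 8.12% ± 0.15 to 5.92% ± 0.15 and USP33 from 3.997% ± 0.03 to 2.88% ± 0.16. USP19 held 3.98% ± 0.11 and 3.75% ± 0.18, with overlap (exact permutation p = 0.2), and USP30 0.490% ± 0.043 and 0.423% ± 0.011. The exact permutation p was also 0.1 for the shares of USP32, USP22, USP33 and USP30, so it sets no member apart.

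Of 32 tested deubiquitinases of other families 14 rose and 15 fell, with a median of -0.10 (all genes 33.3% higher, 41.3% lower, median -0.06). With TPM 5 rose and 18 fell (median -0.45, all genes 14.3% higher, 62.1% lower). After quantile normalization 15 were higher and 10 lower (0.06, all genes 43.8% and 30%). When corrected for length 11 were higher and 8 lower (0.07, all genes 35.1% each). UCHL1, abundant in this line, rose from 572 ± 8.48 FPKM and reached 1199 ± 58.3 FPKM (a difference of 1.07, limma adjusted p = 1.70e-07, 0.69 with TPM), and JOSD2 rose from 15.9 ± 1.92 to 39.8 ± 8.22 FPKM (1.26). The proteasomal PSMD14 rose from 180.6 ± 4.16 to 258.9 ± 2.95 FPKM (0.52, 0.15 with TPM). MINDY2 fell from 3.81 ± 0.20 to 1.497 ± 0.18 FPKM (-0.95), and CYLD, a member of the same fold as the USP genes, from 7.45 ± 0.57 to 5.16 ± 0.56 FPKM (-0.46). These 5 were chosen after their values were seen. The difference between the families was not tested.

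UBB, which encodes a chain of ubiquitin units, rose from 1743 ± 26.6 to 2910 ± 219 FPKM (log2 difference 0.74, 0.36 with TPM and 0.18 after quantile normalization). RPS27A, which encodes ubiquitin fused to a ribosomal protein, rose from 1749 ± 28.7 to 2580 ± 206 FPKM (0.56, 0.19 with TPM), although it was at -0.0044 and not called after quantile normalization. Ubiquitin genes are alike in sequence, so reads can be shared between them. Of the activating enzymes, UBA1, at 162 ± 2.09 and 169 ± 8.89 FPKM, did not pass (limma adjusted p = 0.293), and UBA6 went from 11.1 ± 0.70 to 7.76 ± 1.14 FPKM (-0.47, length-corrected 0.07).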

How the data were processed

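RNA of MDA-MB-231 cells was profiled 48 h after transfection, in 3 libraries per siRNA. Per the file headers, the authors deposited 1 FPKM value per gene and library, and per the submitters' processing notes the genome was GRCh38.p13. For the aligner, the counter and the strand setting nothing was given in the sources used here. Genes with a mean of at least 1 FPKM (12003) were fitted on log2(FPKM + 1) in limma 3.58.1 (R 4.3.3, mean-variance trend), with 2-sided p-values adjusted over all genes by Benjamini and Hochberg and called under 0.05; the code was tested on simulated data. Transcripts came from GENCODE 29 (principal transcript, longest coding sequence). Length was corrected by a loess curve (span 0.5) per library; a least-squares curve was run first, and the robust curve used here replaced it after its output was seen. Values in every library are given for USP6, the DUSP-domain members, USP19, USP30 and the 6 lowest and 6 highest others. The members and lists were chosen with earlier results of these data known. Identity came from local BLOSUM62 alignments (gap costs 11 and 1, Biopython 1.88), and a hydrophobic window is 19 residues with mean Kyte-Doolittle hydropathy of at least 1.6. Some genes of the lists are not reported here.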

Additional observations from a re-analysis of the deposited data

How the results depend on the processing

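Against 5 members called higher and 30 called lower in the FPKM as deposited, 1 was higher with TPM, 12 were higher and 15 lower after quantile normalization, 14 higher and 8 lower with the robust length correction, and 20 higher and 5 lower with the least-squares length correction. The least-squares curve was run first, and the robust curve was chosen after seeing both; the 2 curves differ only in how they weight genes far from the curve. Over all genes, 4001 higher and 4956 lower became 1716 and 7453 with TPM, and 3068 were lower at a minimum mean of 5 FPKM, where fewer genes were tested. After quantile normalization 5253 genes were higher and 3604 lower. Of 11957 genes, 4195 were higher and 4202 lower with the robust length correction, and 5345 and 3407 with the least-squares one. With TPM the log2 difference changed sign for USP11 -0.10, USP20 -0.29, USP3 -0.17, USP4 -0.046, USP40 -0.30, USP45 -0.16 and USP5 -0.11. After quantile normalization it changed sign for USP13 0.0702, USP15 0.0901, USP18 0.32, USP2 0.048, USP25 0.0012, USP27X 0.11, USP30 0.12, USP31 0.24, USP35 0.31, USP36 0.17, USP42 0.0801, USP46 0.057, USP53 0.00202 and USP54 0.024. With the robust length correction it changed sign for USP13 0.26, USP15 0.33, USP19 0.034, USP24 0.036, USP31 0.40, USP35 0.15, USP36 0.25, USP38 0.066, USP42 0.011, USP46 0.19, USP49 0.089, USP53 0.042, USP54 0.079, USP6 0.053, USP7 0.062 and USP8 0.24. With the least-squares length correction it changed sign for USP10 0.0058, USP13 0.37, USP14 0.085, USP15 0.39, USP16 0.011, USP19 0.18, USP24 0.13, USP25 0.078, USP30 0.038, USP31 0.50, USP35 0.30, USP36 0.38, USP37 0.014, USP38 0.18, USP42 0.15, USP46 0.31, USP48 0.085, USP49 0.20, USP53 0.17, USP54 0.20, USP6 0.16, USP7 0.19 and USP8 0.28. Leaving out 1 library in turn gave 5 to 7 members higher and 24 to 31 lower, and over all genes 3692 to 4276 higher and 4556 to 5083 lower. In these fits USP18 ranged from -0.15 to 0.075 and USP40 from -0.026 to 0.083, and no other member changed sign. Another pseudocount, no filter, and limma with no trend changed no sign, but USP10 lost its call with no filter (adjusted p = 0.0599) and no trend (0.0579), USP16 with both (0.0672 and 0.0647) and a pseudocount of 0.1 (0.0504), and USP15 with no filter (0.0538), while limma with no trend called USP31 (0.0351) and USP36 (0.0382). Between same-numbered libraries of the 2 groups the correlation of deviations was -0.0766, 0.0706 and 0.119, against -0.158 to 0.1 between differently numbered ones. With 3 libraries a group these values cannot settle whether the replicate numbers pair the libraries. With the replicate number as a block 5 members were higher and 30 lower, with no call changed. Except where stated, the cause of these changes was not tested.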
